A study of Homo sapiens with 9 samples.

Results

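The 9 microRNA (miRNA) hairpins described here belong to the paralogues of the MIR17HG miRNA cluster. The MCM7 cluster on chromosome 7 holds hsa-mir-106b, hsa-mir-93 and hsa-mir-25, and the X cluster holds hsa-mir-106a, hsa-mir-18b, hsa-mir-20b, hsa-mir-19b-2, hsa-mir-92a-2 and hsa-mir-363. They were taken by name from a count table of 1485 hairpins, and all 9 had a row. Small RNA was sequenced in 9 libraries from human cell lines transfected with an siRNA against ERH or with a control siRNA. HEK293E, a human embryonic kidney line that carries the EBNA1 gene of Epstein-Barr virus, was transfected in replicates 1 and 2 with siGFP, siControl or siERH-3, in replicate 2 also with another ERH siRNA, siERH-5, and was harvested on day 5. K562, a chronic myeloid leukaemia line with erythroid features, has 1 library with siGFP and 1 with siERH-5 and was harvested 4 days after transfection. All cells, controls included, went through siRNA transfection, and untransfected cells were not analysed here. The table holds no mRNA, so the ERH level was not checked. The labels do not say that replicates were separate cultures, so p-values measure the spread between these libraries only.

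The libraries held 2609929 to 3320017 counts, and the 9 hairpins took 8.91% to 12.01% of them. The floor of 3 counts corresponded to 0.904 to 1.15 counts per 1000000 (CPM). As a check of the cell lines, the erythroid hairpin hsa-mir-451a had 51 to 105 counts in HEK293E, against 60425 in the K562 siGFP library and 41320 in the siERH-5 library. Its neighbour hsa-mir-144 had 49 to 87 counts in HEK293E, against 20669 and 35249 in K562.

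A primary miRNA transcript is cut in the nucleus by the Microprocessor, made of the RNase DROSHA and its RNA-binding partner DGCR8, and the released hairpin is then cut by DICER into a mature miRNA. ERH is a small nuclear protein that binds DGCR8, and it is known for helping the cleavage of poor hairpins that lie beside good ones in the same transcript. The miRNA family, transcribed from MIR17HG on chromosome 13 and from its paralogues on chromosomes 7 and X, is known for promoting proliferation, and its members repress cell cycle inhibitors and the apoptosis factor BIM. Mature miRNAs find targets mainly through their seed, bases 2 to 8, and miRNAs with the same seed share most predicted targets.

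The main mature arms of the 9 hairpins carry 4 seeds and are printed to show which members share one. All 9 were matched in RefSeq's table (GRCh38.p14). Capitals mark the seed. Those with the seed of miR-17 are, with miR-17 itself from MIR17HG for comparison:
miR-106b-5p: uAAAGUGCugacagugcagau
miR-93-5p: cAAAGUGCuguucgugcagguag
miR-106a-5p: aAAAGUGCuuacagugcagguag
miR-20b-5p: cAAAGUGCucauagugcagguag
miR-17-5p: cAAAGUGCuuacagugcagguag
The remaining members carry the seeds of miR-18, miR-19 and miR-92, and miR-18a and miR-19a from MIR17HG are added for comparison:
miR-18b-5p: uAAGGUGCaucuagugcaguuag
miR-18a-5p: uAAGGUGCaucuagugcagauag
miR-19b-3p: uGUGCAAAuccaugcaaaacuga
miR-19a-3p: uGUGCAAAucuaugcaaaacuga
miR-25-3p: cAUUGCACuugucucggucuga
miR-92a-3p: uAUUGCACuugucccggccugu
miR-363-3p: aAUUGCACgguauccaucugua

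The sequences show how far each chromosome X miRNA can be told from its MIR17HG relative. Counted from 1 at the 5′ end, with the MIR17HG base first, miR-106a-5p differs from miR-17-5p by C1A alone, miR-18b-5p from miR-18a-5p by A20U alone, and miR-20b-5p from miR-20a-5p by U1C and U10C. The mature sequence of hsa-mir-19b-2 has 0 differences from that of hsa-mir-19b-1 on chromosome 13. The same holds for hsa-mir-92a-2 and hsa-mir-92a-1, also with 0. A read of such a mature miRNA does not show which locus made it. miR-19a-3p differs from miR-19b-3p by U11C, outside the seed. Of the 2370 mature names in the RefSeq table, 8 carried the miR-17 seed, 3 the miR-18 seed, 2 the miR-19 seed and 6 the miR-92 seed.

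The clusters lie in different kinds of transcript. On chromosome 7 (GRCh38, minus strand), MIR106B (100093993 to 100094074), MIR93 (100093768 to 100093847) and MIR25 (100093560 to 100093643) span 515 bases, with 145 and 124 bases between neighbours. They lie in introns of all 8 annotated transcripts of MCM7 that overlap them, and in 0 exons. MCM7 encodes a subunit of the replicative DNA helicase. On chromosome X (minus strand), the 6 hairpins span 901 bases, from MIR106A (134170198 to 134170278) through MIR18B (134170041 to 134170111), MIR20B (134169809 to 134169877), MIR19B2 (134169671 to 134169766) and MIR92A2 (134169538 to 134169612) to MIR363 (134169378 to 134169452). All 6 overlap an exon of the noncoding transcript AC002407.1 in GENCODE 29, and the gaps between them are 86, 163, 42, 58 and 85 bases. RefSeq's table held the hairpins of 7 of the 9 members, all but MIR93 and MIR20B.

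Hairpin sequences are shown for an MCM7 pair whose ratio is compared later, and for the member with the weakest predicted fold among those in RefSeq's table. Capitals mark the main mature arm:
hsa-mir-106b, chr7:100093993-100094074, minus strand: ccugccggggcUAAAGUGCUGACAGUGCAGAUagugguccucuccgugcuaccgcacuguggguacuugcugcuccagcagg
hsa-mir-25, chr7:100093560-100093643, minus strand: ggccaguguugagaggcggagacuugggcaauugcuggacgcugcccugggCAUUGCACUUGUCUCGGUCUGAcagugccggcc
hsa-mir-18b, chrX:134170041-134170111, minus strand: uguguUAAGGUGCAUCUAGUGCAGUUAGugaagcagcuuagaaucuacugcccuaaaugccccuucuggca
Folding energy per base, computed with RNAfold, was -0.54 kcal/mol for hsa-mir-106b, -0.43 for hsa-mir-25 and -0.27 for hsa-mir-18b, against a median of -0.45 over 1560 RefSeq hairpins. 3.91% of those hairpins had a weaker fold per base than hsa-mir-18b. The energies of the other members in the table, hsa-mir-106a, hsa-mir-19b-2, hsa-mir-92a-2 and hsa-mir-363, were -0.42, -0.42, -0.40 and -0.35. GC content also divided the clusters, at 61.0% and 63.1% for hsa-mir-106b and hsa-mir-25 and 34.4% to 46.5% for the 5 X hairpins in the table.

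Abundance differed by orders of magnitude between members of the X cluster, and far less between those of the MCM7 cluster. Levels are given in CPM of libraries scaled by TMM, the trimmed mean of M-values. They were not divided by length, since 1 read stands for 1 mature miRNA of 21 to 23 bases. In the 4 HEK293E control libraries hsa-mir-92a-2 had 36608 ± 2709 CPM (SD, n = 4) and was the 2nd highest row of the table, and hsa-mir-19b-2 had 22675 ± 3164 (SD, n = 4) at rank 8. Both share their mature sequence with a MIR17HG copy. hsa-mir-106b followed with 14617 ± 2140 CPM, hsa-mir-93 with 13219 ± 3245 and hsa-mir-25 with 9984 ± 1638 (SD, n = 4 each), at ranks 16, 24 and 31. The ranges of these MCM7 hairpins over the control libraries overlapped (11733 to 16691, 9206 to 16372 and 7828 to 11767 CPM). hsa-mir-106a had 4193 ± 1552 CPM and hsa-mir-18b 324 ± 67.1 (SD, n = 4 each), at ranks 70 and 221, each below all values of the member before it.

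hsa-mir-20b and hsa-mir-363 were close to undetected. Their neighbours hsa-mir-19b-2 and hsa-mir-92a-2 had high counts, but share their mature sequences with MIR17HG copies. Those counts therefore do not show how abundant the X transcript was. hsa-mir-20b had 6 and 9 counts in the siGFP libraries of replicates 1 and 2, 10 and 8 with siControl, 8 and 6 with siERH-3 and 8 with siERH-5. The K562 libraries held 7 of its counts (siGFP) and 15 (siERH-5). hsa-mir-363 had 1 count in 5 of the 9 libraries and 0 in the other 4, below the floor of 3 counts in each, which is 5 counts in all. Both had a mean under the minimum of 10 counts in HEK293E (7.86 and 0.571) and were not tested there. With no filter on low counts both were tested and neither passed, and a difference with siERH was not detectable at this depth.

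**Figure D1:**
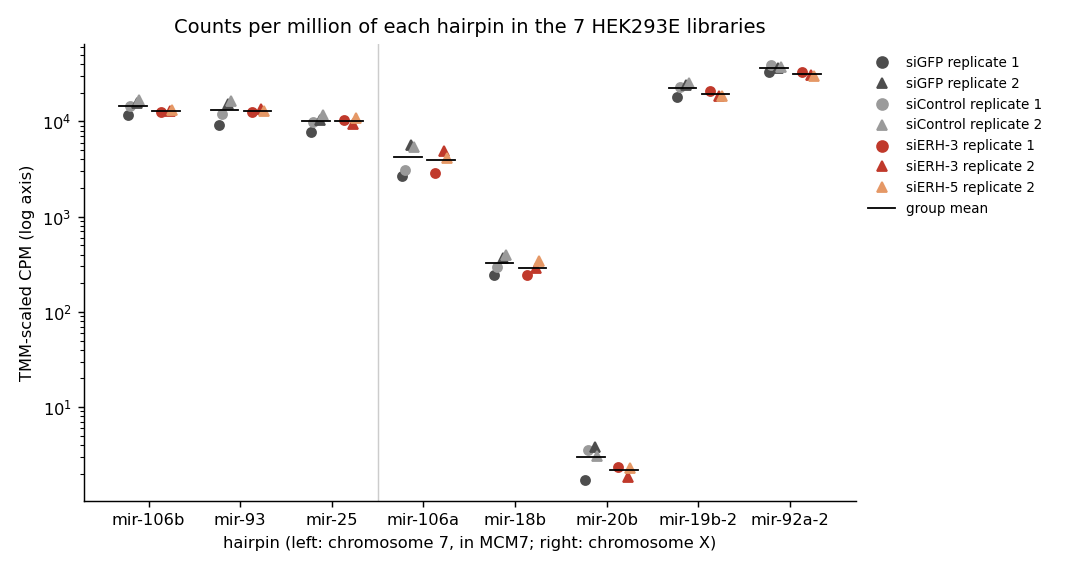
Level of 8 members (horizontal axis) in each HEK293E library in TMM-scaled CPM (vertical axis, log scale); circles are replicate 1, triangles replicate 2, grey shades controls, red and orange siERH, and lines the means of the 4 control and 3 siERH libraries. hsa-mir-363, with 0 or 1 count, is not drawn. Control and siERH points overlap for the 7 tested members, and hsa-mir-106a splits by replicate.

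The X hairpins, apart from hsa-mir-363, were set against a chromosome 13 counterpart, and their shares of its counts differed widely. Over the 9 libraries hsa-mir-106a had 10.4% to 13.8% of the counts of hsa-mir-17 (median 12.3%), hsa-mir-18b had 1.26% to 1.89% of those of hsa-mir-18a (median 1.45%), and hsa-mir-20b had 0.00622% to 0.0136% of those of hsa-mir-20a (median 0.00879%). The pairs with identical mature sequences behaved otherwise. hsa-mir-19b-2 had 92.6% to 96.1% of the counts of hsa-mir-19b-1, and hsa-mir-92a-2 had 97.1% to 98.3% of those of hsa-mir-92a-1. The treatment of reads that fit both copies is not given in the sources used here, so values of the copies are not independent. For hsa-mir-106a and hsa-mir-18b a single base separates the mature sequences, so the share of their counts that came from reads of hsa-mir-17 or hsa-mir-18a was not tested. Without hsa-mir-19b-2 and hsa-mir-92a-2, the X cluster took 0.311% to 0.763% of a library, against 2.46% to 3.99% for the MCM7 cluster.

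**Figure D2:**
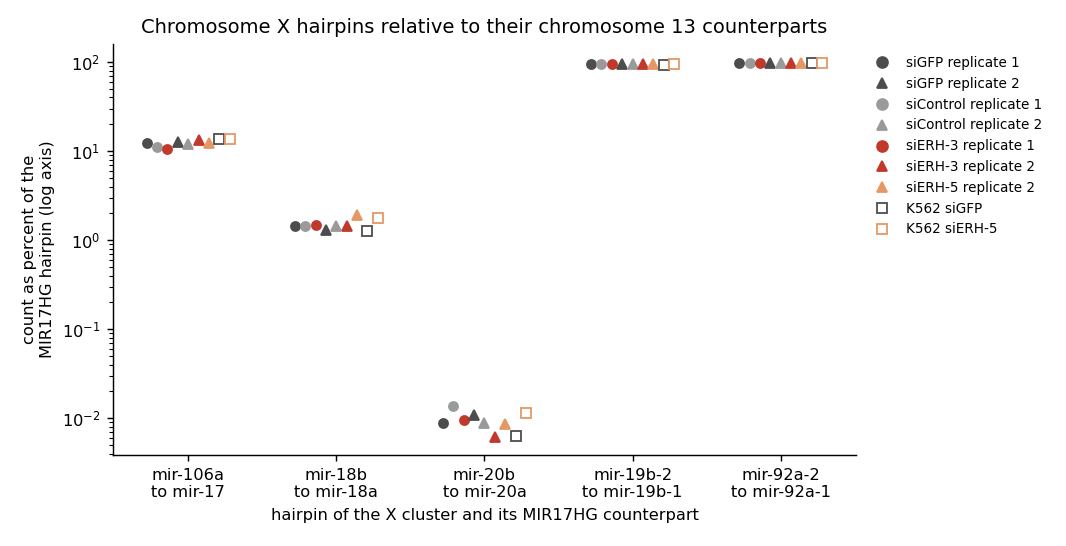
Counts of each X hairpin except hsa-mir-363 as a percent of its MIR17HG counterpart (vertical axis, log scale) in the 9 libraries. Circles and triangles are HEK293E replicates 1 and 2, and open squares are K562. The hairpins hsa-mir-19b-2 and hsa-mir-92a-2 sit near 95% and 98% in every library, hsa-mir-106a near 12%, hsa-mir-18b near 1.5% and hsa-mir-20b near 0.009%.

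The main comparison asked whether ERH knockdown changed the members in HEK293E, with siERH-3 and siERH-5 pooled (3 libraries) against siGFP and siControl (4 libraries). No member passed the test. Of the 773 hairpins tested by edgeR's quasi-likelihood test, 40.0% passed an adjusted p of 0.05, 16.2% lower and 23.8% higher with siERH. Of the 7 members tested, 0 passed in either direction, 0 had an unadjusted p under 0.05, and 0 passed with the replicate number as a block, where 48.6% of all hairpins did. DESeq2 called 0 members, with 1 at an unadjusted p under 0.05, and limma on the deposited RPM values called 0. The median log2 fold change of the members was -0.15 and that of all tested hairpins -0.01. With library totals in place of TMM the medians were 0.06 and 0.19, and the difference between them was -0.14 under both scalings. Over the other alternatives that kept all libraries or used a subset by siRNA or replicate it ran from -0.36 in replicate 2 alone to 0.0065 with a filter at 100 CPM. Leaving out 1 library at a time, the members' median ran from -0.27 without siGFP replicate 1 to -0.0051 without siERH-3 replicate 1.

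Among the MCM7 hairpins, hsa-mir-106b, a repressor of the cell cycle inhibitor p21, had 11733 and 15650.3 CPM with siGFP in replicates 1 and 2, 14394 and 16691 with siControl, 12431 and 12942 with siERH-3, and 13034 with siERH-5. The siERH values fell inside the control range, above the lowest control and below the others. The change was -0.19 ± 0.15 on the log2 scale (SE; edgeR adjusted p = 0.354), with a 95% interval of -0.53 to 0.15.
hsa-mir-93, which has the same seed, had 9206 and 15257 CPM with siGFP, 12039.9 and 16372 with siControl, 12425 and 13419.6 with siERH-3, and 13002 with siERH-5. Here the siERH libraries lay in the middle of a wide control range, whose low value is again siGFP replicate 1. The siERH value differed by -0.03 ± 0.20 on the log2 scale (SE; edgeR adjusted p = 0.91), with an interval of -0.46 to 0.40.
hsa-mir-25, of the miR-92 seed family, had 7828 and 10446 CPM with siGFP, 9896 and 11767 with siControl, 10308 and 9396 with siERH-3, and 10732 with siERH-5. All 3 siERH values were inside the control range. The estimate was 0.02 ± 0.16 on the log2 scale (SE; edgeR adjusted p = 0.913), with an interval of -0.34 to 0.38.

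On the X chromosome, hsa-mir-106a, the miR-17 relative that opens the cluster, had 2640 and 5706 CPM with siGFP in replicates 1 and 2, 3089.5 and 5336 with siControl, 2892 and 4849 with siERH-3, and 4104 with siERH-5. Its values separated by replicate and not by siRNA. In replicate 2 it was higher by 1.11, 0.79 and 0.75 on the log2 scale with siGFP, siControl and siERH-3. The estimated log2 fold change with siERH was -0.09 ± 0.28 (SE; edgeR adjusted p = 0.825), and its interval of -0.72 to 0.54 is the widest of the 7.
hsa-mir-18b, the relative of miR-18a, had 247 and 364 CPM with siGFP, 293 and 395 with siControl, 246 and 289.5 with siERH-3, and 341 with siERH-5. Replicate 2 was again the higher one for each siRNA, and control and siERH values overlapped. The estimate was -0.15 ± 0.21 on the log2 scale (SE; edgeR adjusted p = 0.605), with an interval of -0.62 to 0.32.

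The hairpins with the same mature sequence as a MIR17HG copy had the lowest log2 fold changes of the 7 tested members, without passing the test. hsa-mir-19b-2, of the miR-19 seed family, had 18127 and 24137.5 CPM with siGFP, 23111 and 25323.5 with siControl, 20864 and 18697 with siERH-3, and 18408 with siERH-5. hsa-mir-92a-2 had 32911 and 36623 CPM with siGFP, 39336 and 37561.5 with siControl, 33186 and 30634 with siERH-3, and 30169 with siERH-5. For both, siGFP replicate 1 was the only control inside or below the siERH range. The log2 fold changes were -0.23 ± 0.15 (SE; edgeR adjusted p = 0.264) for hsa-mir-19b-2 and -0.22 ± 0.13 (SE; edgeR adjusted p = 0.21) for hsa-mir-92a-2. The MIR17HG copies gave -0.23 for both hsa-mir-19b-1 and hsa-mir-92a-1, which are not separate observations.

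For all 7 tested members the range of the 3 siERH libraries overlapped that of the 4 controls, while 44.6% of all tested hairpins had groups that did not overlap. The calls depended on siGFP replicate 1 and on replicate 1 as a whole. Without siGFP replicate 1, 1 member passed lower, hsa-mir-19b-2 at -0.33, where 16.9% of 770 hairpins did. With the replicate 2 libraries alone, 3 members passed lower, where 12.9% of 770 hairpins did: hsa-mir-19b-2 at -0.37, hsa-mir-106b at -0.27 and hsa-mir-92a-2 at -0.24. Removing a trend on hairpin GC content also called 2 members lower, hsa-mir-19b-2 at -0.87 and hsa-mir-92a-2 at -0.46, where 19.4% of all hairpins passed lower. With the replicate block added it called 3, with hsa-mir-106a at -0.56, where 24.1% of all hairpins passed lower. That correction moved hsa-mir-19b-1, which holds nearly the same counts as hsa-mir-19b-2, to -0.54.

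**Figure D3:**
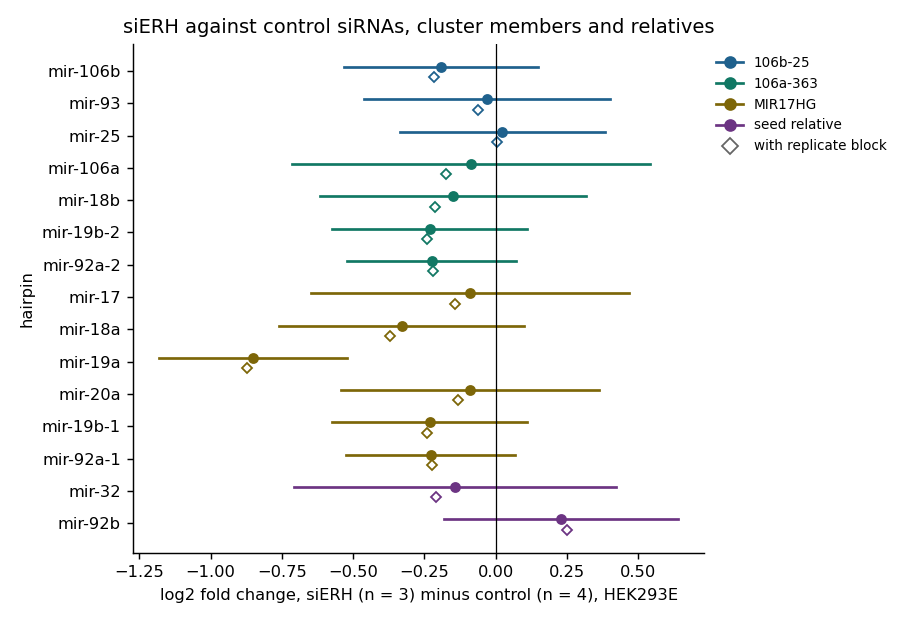
Log2 fold change of siERH against control in HEK293E (horizontal axis) for the 7 tested members and the 8 tested relatives (vertical axis), with 95% intervals from edgeR; diamonds give the value with the replicate block. The intervals of the 7 members cross 0, and hsa-mir-19a at -0.85 is the one relative whose interval does not.

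The relatives give the family context. The list held the 6 hairpins of MIR17HG and 5 others that share a seed, and 8 of the 11 were tested. In the main fit 1 passed lower and 0 higher. This was hsa-mir-19a, which had 19476 and 24741 CPM with siGFP, 22033.5 and 25471 with siControl, 12397 and 13614 with siERH-3, and 12157 with siERH-5. All 3 siERH libraries were below all 4 controls, and it fell by 0.85 ± 0.15 on the log2 scale (SE; edgeR adjusted p = 0.00162). hsa-mir-18a had -0.33 ± 0.19 (SE; edgeR adjusted p = 0.206) without the block and passed with it, at -0.37 (edgeR adjusted p = 0.0229, range over the alternatives 0.00058 to 0.586). The other tested relatives ranged from -0.23 for hsa-mir-19b-1 and hsa-mir-92a-1 to 0.23 for hsa-mir-92b, with hsa-mir-17 and hsa-mir-20a both at -0.09 and hsa-mir-32 at -0.14. With the replicate 2 libraries alone, hsa-mir-17, hsa-mir-18a, hsa-mir-19a, hsa-mir-20a, hsa-mir-19b-1 and hsa-mir-92a-1 passed lower, where 12.9% of 770 hairpins did. With the GC trend removed, hsa-mir-18a, hsa-mir-19a, hsa-mir-20a, hsa-mir-19b-1 and hsa-mir-32 did, where 19.4% of all hairpins passed lower. Without siGFP replicate 1, hsa-mir-18a, hsa-mir-19a and hsa-mir-19b-1 did, where 16.9% of 770 hairpins did. hsa-mir-367, hsa-mir-519d and hsa-mir-526b had means of 2.86, 2.86 and 7.57 counts and were not tested.

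With siERH-3 alone (2 libraries against 4), 30.6% of 759 hairpins passed, 11.5% lower and 19.1% higher, and again 0 of 7 members did by edgeR (0 at an unadjusted p under 0.05, and 0 by DESeq2). With the replicate block 45.1% of all hairpins and 0 members passed. The members' log2 fold changes lay between -0.27 for hsa-mir-18b and -0.01 for hsa-mir-25. Between the control siRNAs, edgeR called 0 of 730 hairpins in siControl against siGFP, with 24 at an unadjusted p under 0.05 and 4 called by DESeq2, and 0 of the 7 members. With the replicate block 18.2% of all hairpins and 0 members passed. The members were between 0.02 and 0.24 higher with siControl on the log2 scale, a median of 0.18. Leaving out 1 library at a time, this median ran from 0.0085 without siGFP replicate 1 to 0.45 without siGFP replicate 2.

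siERH-5 has 1 library in HEK293E and was set against the replicate 2 controls as a log2 ratio of CPM plus 1. All 7 tested members were below 0, where 48.0% of 773 hairpins were, and 0 were at least 2-fold lower, where 7.37% of all hairpins were. Their median was -0.30, against 0.05 for all hairpins. On library totals these medians were -0.00037 and 0.33, and 4 of the 7 members were below 0, where 35.2% of all hairpins were. hsa-mir-106a had -0.43, hsa-mir-19b-2 -0.43, hsa-mir-106b -0.31, hsa-mir-92a-2 -0.30, hsa-mir-93 -0.28 and hsa-mir-18b -0.15, each below both controls on TMM CPM. hsa-mir-25, at -0.05, was between them. siERH-3 in replicate 2, measured against these same 2 controls, gave values from -0.40 for hsa-mir-19b-2 to -0.19 for hsa-mir-106a. In replicate 1, siERH-3 gave 0.24 for hsa-mir-93 and 0.23 for hsa-mir-25, and from -0.12 to 0.03 for the other 5 members. On library totals hsa-mir-93 was above its controls in every siERH library, at 0.35 with siERH-3 in replicate 1 and 0.022 and 0.016 with siERH-3 and siERH-5 in replicate 2. hsa-mir-25 was above the mean of its controls, at 0.34, 0.019 and 0.25. With siERH-3 in replicate 2 it lay between the controls, at 0.991% of the library against 0.949% with siGFP and 1.009% with siControl. The replicate 2 signs of hsa-mir-93 and hsa-mir-25 therefore turned with the scaling.

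**Figure D4:**
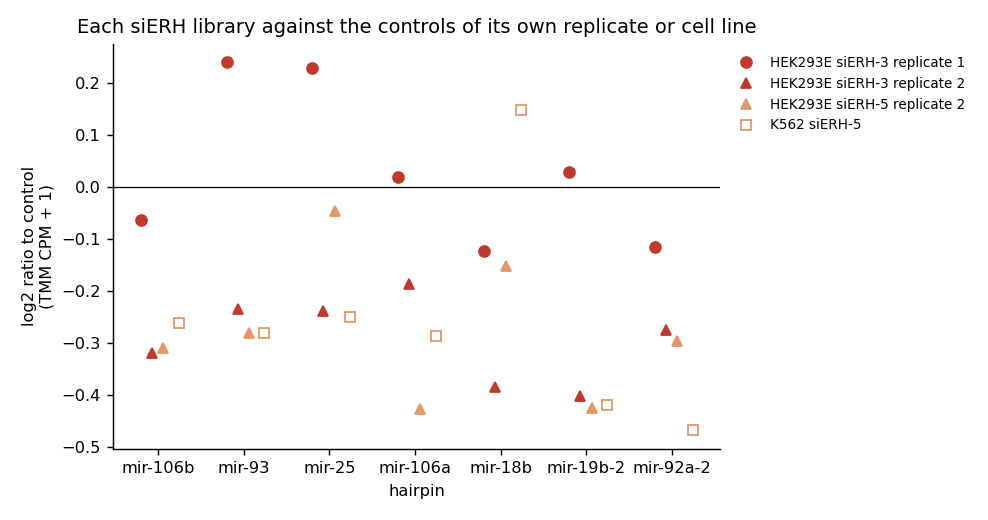
Log2 ratio of each siERH library to the controls of its own replicate or cell line, from TMM CPM plus 1 (vertical axis), for the 7 members tested in HEK293E. Replicate 2 libraries (triangles) and K562 (open squares) lie below 0 except hsa-mir-18b in K562 at 0.15; replicate 1 (circles) lies between -0.12 and 0.24.

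The proportions of the 3 MCM7 hairpins were compared within libraries, since a ratio of counts does not depend on scaling. The ratio of hsa-mir-106b to hsa-mir-25 was 1.499 and 1.498 in the siGFP libraries and 1.45 and 1.42 with siControl in replicates 1 and 2. It was 1.21 and 1.38 with siERH-3 and 1.21 with siERH-5. All siERH libraries were below all controls. The log2 ratio averaged 0.55 ± 0.04 over the controls (SD, n = 4) and 0.34 ± 0.11 over the siERH libraries (SD, n = 3), which is a difference of -0.22, or 1.16-fold lower. The two-sided exact permutation test gave p = 0.0286, the smallest that 35 splits allow, and 0.114 after Benjamini-Hochberg adjustment over the 4 ratios tested. The difference thus did not pass. With the replicate block it was -0.22 (exact permutation p = 0.0556, the smallest that 18 splits allow), and within replicates 1 and 2 it was -0.29 and -0.17.

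The other ratios gave no clearer separation. hsa-mir-106b to hsa-mir-93 was 1.27 and 1.03 with siGFP, 1.20 and 1.02 with siControl, 1.00 and 0.964 with siERH-3 and 1.00 with siERH-5, a log2 difference of -0.18 (exact permutation p = 0.143, adjusted 0.286). Groups did not overlap, but the difference was -0.30 within replicate 1 and -0.06 within replicate 2. hsa-mir-25 to hsa-mir-93 differed by 0.03 (exact permutation p = 0.8286) and ranged from 0.685 to 0.850 over the controls. For the X cluster only hsa-mir-18b to hsa-mir-106a had enough counts, at 0.0637 to 0.0947 in control and 0.0597 to 0.0852 in siERH libraries, a log2 difference of -0.10 (exact permutation p = 0.629). The counts of hsa-mir-20b and hsa-mir-363 were too low for a ratio.

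**Figure D5:**
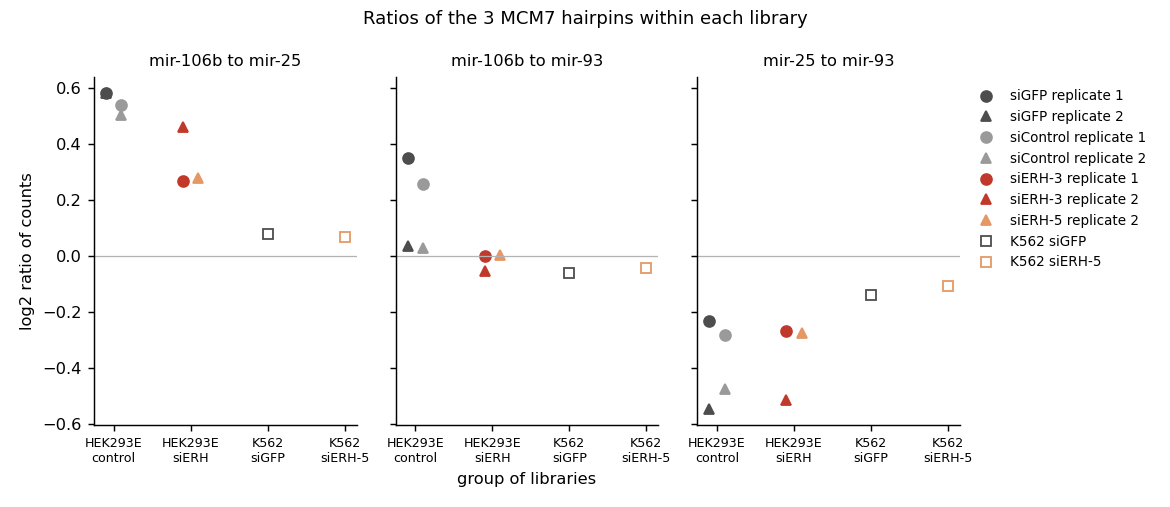
Log2 ratio of counts within each library (vertical axis) for the 3 pairs of MCM7 hairpins, by group of libraries; circles and triangles are HEK293E replicates 1 and 2, squares K562. For hsa-mir-106b to hsa-mir-25 the 4 controls lie between 0.50 and 0.58 and the 3 siERH libraries between 0.27 and 0.46, while the K562 libraries lie at 0.08 and 0.07.

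In K562, siERH-5 was compared with siGFP in 1 library each, so the values describe these libraries, and their intervals cover counting error only. Of the 646 hairpins that passed the count filter, 6.81% were 2-fold or more lower and 10.1% 2-fold or more higher, and 0 of the 8 members tested were past 2-fold either way. The members' median log2 ratio was -0.27 and that of all hairpins 0.11, or 0.01 and 0.37 on library totals. 6 of the 8 were below 0, where 44.0% of all hairpins were. On library totals 3 of the 8 were, and 27.6% of all hairpins.
By member, hsa-mir-92a-2 had 63408 CPM with siGFP and 45812 with siERH-5, a log2 ratio of -0.47, and hsa-mir-19b-2 had 33651 and 25153, a ratio of -0.42. hsa-mir-106a had 7969 and 6528 CPM, a ratio of -0.29. The MCM7 hairpins gave similar values, with 9077 and 7571 CPM for hsa-mir-106b, 9475 and 7794 for hsa-mir-93 and 8603 and 7229.6 for hsa-mir-25, and log2 ratios of -0.26, -0.28 and -0.25. On library totals these 3 ratios were 0.02, 0.00093 and 0.03. The ratio of hsa-mir-106b to hsa-mir-25 was 1.06 with siGFP and 1.05 with siERH-5.
hsa-mir-18b stood on the other side of 0, with 351 CPM (832 counts) and 389 CPM (1424 counts), a log2 ratio of 0.15 with a 95% counting interval of 0.02 to 0.27. hsa-mir-20b, with 7 and 15 counts, had 0.37 with an interval of -1.02 to 1.90.

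Between the cell lines, the counts of hsa-mir-106a and hsa-mir-92a-2 differed relative to those of the MCM7 hairpins. In control libraries hsa-mir-106a took 0.284% to 0.518% of the HEK293E counts and 0.722% of the K562 siGFP counts, and hsa-mir-92a-2, with the reads it shares, took 3.22% to 3.73% and 5.75%. hsa-mir-18b took 0.0318% in K562, inside its HEK293E control range of 0.0266% to 0.0338%. The MCM7 hairpins took smaller shares in K562. hsa-mir-106b took 1.26% to 1.43% in HEK293E and 0.823% in K562, hsa-mir-93 took 0.992% to 1.40% and 0.859%, and hsa-mir-25 took 0.843% to 1.01% and 0.78%. These shares depend on the scaling. On TMM CPM all 7 members were above the HEK293E control range in K562, with log2 ratios from 0.35 for hsa-mir-106b to 2.03 for hsa-mir-106a, and 4 were at least 2-fold higher, where 22.7% of 745 hairpins were. On library totals 0 were, the median of all hairpins went from -0.24 to -1.18, and the MCM7 hairpins turned to between -0.73 and -0.26. Counts within a library avoid the scaling. hsa-mir-106a had 0.215 to 0.365 counts per count of hsa-mir-106b in the HEK293E controls and 0.878 in K562 with siGFP, and 0.862 with siERH-5. hsa-mir-92a-2 had 3.19 to 4.204 counts per count of hsa-mir-25 in the HEK293E controls and 7.37 in K562 with siGFP. K562 has 1 library for each siRNA, so these differences have no test. The mature sequence of hsa-mir-106a is 1 base from that of hsa-mir-17, and hsa-mir-92a-2 has that of hsa-mir-92a-1. hsa-mir-17 also took a larger share in K562, at 5.30% with siGFP against 2.32% to 4.12% in the HEK293E controls. Whether the X locus itself differed between the lines was not tested.

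Outside the 9 members, the hairpins whose levels varied most like each cluster over the 7 HEK293E libraries were sought among 290 with a mean of at least 100 CPM. For the mean of hsa-mir-106b, hsa-mir-93 and hsa-mir-25 they were hsa-mir-148b, hsa-mir-30b and hsa-mir-23b, with Pearson's r of 0.963, 0.960 and 0.957. For the mean of the X hairpins without hsa-mir-19b-2 and hsa-mir-92a-2 they were hsa-mir-24-2, hsa-mir-20a and hsa-mir-24-1, with r of 0.963, 0.949 and 0.946. That mean gave equal weight to hsa-mir-20b and hsa-mir-363, which had only 6 to 10 and 0 to 1 counts in HEK293E. hsa-mir-19a had r of 0.372 with the first and 0.501 with the second. The 7 points share their replicate groups and library scaling, so these values only describe the libraries.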

How the data were processed

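Per the labels' protocols, RNA of 18 to 30 nucleotides was gel-purified from total RNA after spike-in RNAs were added, and ligated to adapters with random bases. Per the submitters' processing notes, cutadapt, Bowtie2, bedtools and the build hg38 were used, with no versions or order given. The authors deposited raw counts per hairpin (1485 hairpins, 9 libraries), in which 5p and 3p arms are not separated, with 2336 blank cells read here as 0. The authors also deposited RPM values, which equal the count plus 1 per 1000000 of the library total plus 1485 (largest relative difference 1.1e-09). Spike-ins were not used here, so changes are relative to the other hairpins. Collapsing of reads by molecule is not given in the sources used here, and intervals and floors reflect counting error alone.

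Counts were tested with edgeR 4.0.16 (R 4.3.3) by the quasi-likelihood test, with TMM, a filter at 10 counts on average per compared library, and Benjamini-Hochberg adjustment over all hairpins tested at 0.05. SE is the size of the log2 fold change over the square root of F. Tested on simulated data of 773 hairpins for siERH against control, 149 of 200 hairpins changed 2-fold were called (74.5%) and 0 had the wrong sign, while 3 of the unchanged hairpins were called, and 0 in data without changes. The simulated libraries had no shift between replicates and no changes other than 2-fold. Recovery of smaller changes, such as those of the members, was therefore not tested. Replicate numbers match the labels' experimental groups, and deviations of same-numbered libraries correlated across 773 hairpins (r = 0.64 for siGFP with siControl, 0.44 for siGFP with siERH-3, 0.48 for siControl with siERH-3), so the fit with the replicate number as a block was used as the paired alternative. Alternatives were DESeq2 1.42.0, limma 3.58.1 on log2 RPM, other scalings and filters, a GC correction (1480 hairpins had a GC value) and leaving out libraries. Single libraries were compared by log2 ratios with a pseudocount of 1 and 95% intervals from an exact binomial interval of the counts. Within-library ratios used an exact permutation test.

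Coordinates are from GENCODE 29, sequences from RefSeq (GRCh38.p14), and folds from RNAfold 2.7.2. Other software was matplotlib 3.10.9, scipy 1.17.1, pandas 2.3.3, numpy 2.4.6 and Python 3.11.15. All 9 members are named, with every tested relative and the 3 hairpins most like each cluster. Members and lists were chosen with earlier results of these data known.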

Additional observations from a re-analysis of the deposited data

Results flagged for a closer look

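1 result was flagged. hsa-mir-18b was below the controls of its own replicate in all 3 HEK293E siERH libraries, with log2 ratios of -0.12, -0.39 and -0.15, but above siGFP in the K562 siERH-5 library, with a log2 ratio of 0.147 (0.43 on library totals). These K562 values were close to the medians of all tested hairpins there, 0.11 and 0.37 on library totals. With 1 K562 library per siRNA, the difference between the lines was not tested. On library totals the HEK293E siERH-5 library was also above its controls, at 0.14. As a percent of hsa-mir-18a, hsa-mir-18b was at 1.26% and 1.76% in K562 with siGFP and siERH-5, and at 1.31% and 1.43% in the replicate 2 controls of HEK293E and 1.89% with siERH-5. With siERH-3 the percent was 1.47% and 1.42% in replicates 1 and 2. The values of the 4 HEK293E controls held no outlying library in the 12 sets tested, where chance gives about 1 in 20. With 4 values in a set only a very distant library could stand out. siGFP replicate 1 was still the lowest control on TMM CPM for every tested member.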

How the results depend on the processing

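In HEK293E no member was called higher with siERH under any alternative run, and hsa-mir-19a was called lower under all 20. The filter at 10 counts kept hsa-mir-20b and hsa-mir-363 out. With no filter all 9 members were tested and 0 called. With library totals 67 hairpins were lower and the log2 fold changes of hsa-mir-106a, hsa-mir-18b, hsa-mir-106b and hsa-mir-93 turned to 0.13, 0.055, 0.0089 and 0.18, and those of hsa-mir-17, hsa-mir-20a and hsa-mir-32 to 0.13, 0.12 and 0.074. With limma on log2(RPM + 1) 66 were lower and the same 7 were 0.15, 0.0499, 0.0101, 0.19, 0.16, 0.14 and 0.098, and with log2(RPM + 10) 63 were lower and they were 0.15, 0.0486, 0.0101, 0.19, 0.16, 0.14 and 0.097. With the filter at 100 CPM 45 were lower and 38 higher of 298 tested, and hsa-mir-106a, hsa-mir-93, hsa-mir-17 and hsa-mir-20a were 0.037, 0.097, 0.036 and 0.036. hsa-mir-25 was -0.042 with DESeq2, -0.07042 with no filter, -0.13 against siControl alone and -0.094 in replicate 2 alone, and hsa-mir-93 was 0.068 against siGFP alone. With the GC trend removed 122 were higher, 2 members were lower and hsa-mir-93 was 0.079, and with the replicate block as well 3 members were lower and hsa-mir-93 was 0.043. In replicate 2 alone 3 members were lower, and hsa-mir-18b to hsa-mir-106a differed by 0.037. The cause of these changes was not tested.

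For siERH-3, lower hairpins numbered 48 with library totals, 47 and 48 with limma, 30 (27 higher) with at least 100 CPM, 142 with the replicate block and 172 with block and GC correction, and members lower 1 with the GC correction and 3 with the block added. For siControl against siGFP, 2 were lower and 2 higher with DESeq2 and with no filter, 61 and 72 with the replicate block, and 23 and 32 with block and GC correction. Members at least 2-fold higher in K562 numbered 0 on library totals and on the RPM table. Without a GC correction the replicate block changed no call of a member, and of the relatives only that of hsa-mir-18a. Added to the GC correction it also brought in hsa-mir-106a, hsa-mir-17 and hsa-mir-92a-1. For the ratios the block could give no call, since the smallest p its exact permutation test allows is 0.0556. Without the block a lone ratio could not be called either, since the smallest exact permutation p of 0.0286 adjusts to 0.114.

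Leaving out 1 library at a time, siERH against control gave 76 to 130 lower hairpins, with 77 and 76 without siERH-3 replicates 1 and 2, and 0 to 1 members lower. Fold changes ranged from -0.26 to 0.13 for hsa-mir-106a, -0.27 to -0.0051 for hsa-mir-18b, -0.17 to 0.081 for hsa-mir-93, -0.081 to 0.10 for hsa-mir-25, -0.27 to 0.055 for hsa-mir-17, -0.24 to 0.0055 for hsa-mir-20a and -0.31 to 0.032 for hsa-mir-32. The ratio of hsa-mir-25 to hsa-mir-93 ranged from -0.022 to 0.11 and that of hsa-mir-18b to hsa-mir-106a from -0.21 to 0.066. For siERH-3, 19 to 102 were lower and 42 to 152 higher, with 19 and 49 without siERH-3 replicate 1, 24 and 42 without siERH-3 replicate 2, and 51 lower without siControl replicate 1. Without an siERH-3 library, the lone one left is assumed to vary like the controls. For siControl against siGFP, 0 to 1 were higher.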
